A study of Homo sapiens with 8 samples.

Results

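The expression of 8 genes coding for transcription factors (TFs) of biliary or other epithelial cells was examined in HepG2 cells after forced expression of GRHL2. The genes SOX9, SOX4, ONECUT1, ONECUT2, EHF, ELF3, KLF5 and GATA6 were found by their symbols, and all 8 were among the 17561 genes of the expression table. HepG2 is an established human hepatoma line that keeps many features of hepatocytes. Cells growing on gelatin in a medium with serum, insulin and dexamethasone were transfected with pGRHL2, a plasmid that codes for a flag-tagged GRHL2 cDNA driven by an EEF1A1 promoter and that also expresses EGFP, or with pcDNA3, the control vector. The plasmids therefore differed in more than the GRHL2 insert. RNA of the whole cultures was sequenced 48 h later, with 4 libraries per plasmid, which the study describes as independent biological replicates. Transfection was transient and transfected cells were not separated from the others, so that fewer cells expressing a gene and less RNA per cell cannot be told apart.

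Cholangiocytes, the epithelial cells lining bile ducts, arise from the same hepatoblasts as hepatocytes, and several TFs are known to set this choice. SOX9 marks the earliest biliary cells and acts with SOX4 in bile duct formation, while the cut-homeobox factors ONECUT1 (HNF6) and ONECUT2 act upstream of biliary differentiation. EHF and ELF3 belong to the epithelium-specific branch of the ETS family, KLF5 is a zinc-finger factor of gut and biliary epithelia, and GATA6 acts in endoderm. GRHL2 is a grainyhead-like TF which sustains the expression of junction genes in epithelia. The comparison asked whether these TFs changed along with GRHL2.

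The values used are log2 expression values (rlog, which shrinks differences of genes with few reads) adjusted for the average transcript length of a gene. Levels can therefore be set side by side between genes only roughly. A log2 fold change (FC) is the mean of the 4 differences between pGRHL2 and pcDNA3 libraries of the same replicate number (hereafter pairs). In 17561 of 17561 genes, the deposited values of the 4 pairs had an identical mean. The values of a gene in both libraries of a pair therefore mirror each other, both groups have the same SD, and the groups do not overlap exactly when all 4 pairs differ in the same direction. The number of reads behind the values is unknown. GRHL2 itself had values of 16.22, 16.49, 16.87 and 16.33 with pGRHL2 against 7.25, 6.98, 6.61 and 7.15 with pcDNA3, a log2 FC of 9.48 ± 0.57 (SD of 4 pairs; limma, adjusted p = 4.84e-08). By RT-qPCR, the paper found little or no GRHL2 in such cells under basal conditions. The pcDNA3 values of GRHL2 are rlog values that mirror those with pGRHL2, and should not be read as a basal level. All 10 hepatocyte markers examined were in the table, with means from 7.11 (APOC3) to 17.11 (AFP), and the log2 of their summed linear values ranged from 18.20 to 18.40 with pGRHL2 and from 18.10 to 18.31 with pcDNA3. The 5 cholangiocyte markers had means from -1.07 (CFTR) to 13.90 (KRT19), and sums from 14.94 to 15.15 with pGRHL2 and from 14.81 to 15.02 with pcDNA3. None of these 15 markers passed the test. Of 15 markers of stromal, endothelial and immune cells, 8 were not in the table. The 7 others had means from 1.65 (PDGFRA) to 13.27 (LYZ, listed for leukocytes), with COL1A1 at 5.82 and PECAM1 at 5.43. Of these 7, PDGFRA passed the test (log2 FC 0.09, adjusted p = 0.0393).

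None of the 8 TFs passed the test for a change with pGRHL2. In limma, fitted with a block for each replicate number, 0 of 8 passed an adjusted p of 0.05, where 385 of 17561 genes did (2.19%; 1.69% higher and 0.501% lower with pGRHL2). Also 0 of 8 had an unadjusted p under 0.05, against 16.0% of all genes, and 0 of 8 passed in any of the other limma settings tried. Their log2 FCs lay between -0.15 (ONECUT1) and 0.17 (SOX4), with 3 above 0 and 5 below. On the scale of these rlog values, and over whole cultures, this is between 0.903-fold and 1.12-fold. The median of the 8 TFs was -0.0535 against 0.0017 for all genes. In the main fit the 95% confidence intervals of the 8 genes lay between -0.47 and 0.38 on the log2 scale. The bound farthest from 0, that of EHF, amounts to a 1.39-fold difference on the same scale. This bound depends on the moderation in limma, since the interval of EHF widened to -0.71 to 0.58 with robust moderation. Groups did not overlap for 1 of 8 TFs, ELF3, which was lower in all pairs, and for 0 of 8 in the higher direction. Among all genes this was the case for 10.5% in the lower and 13.4% in the higher direction.

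**Figure D1:**
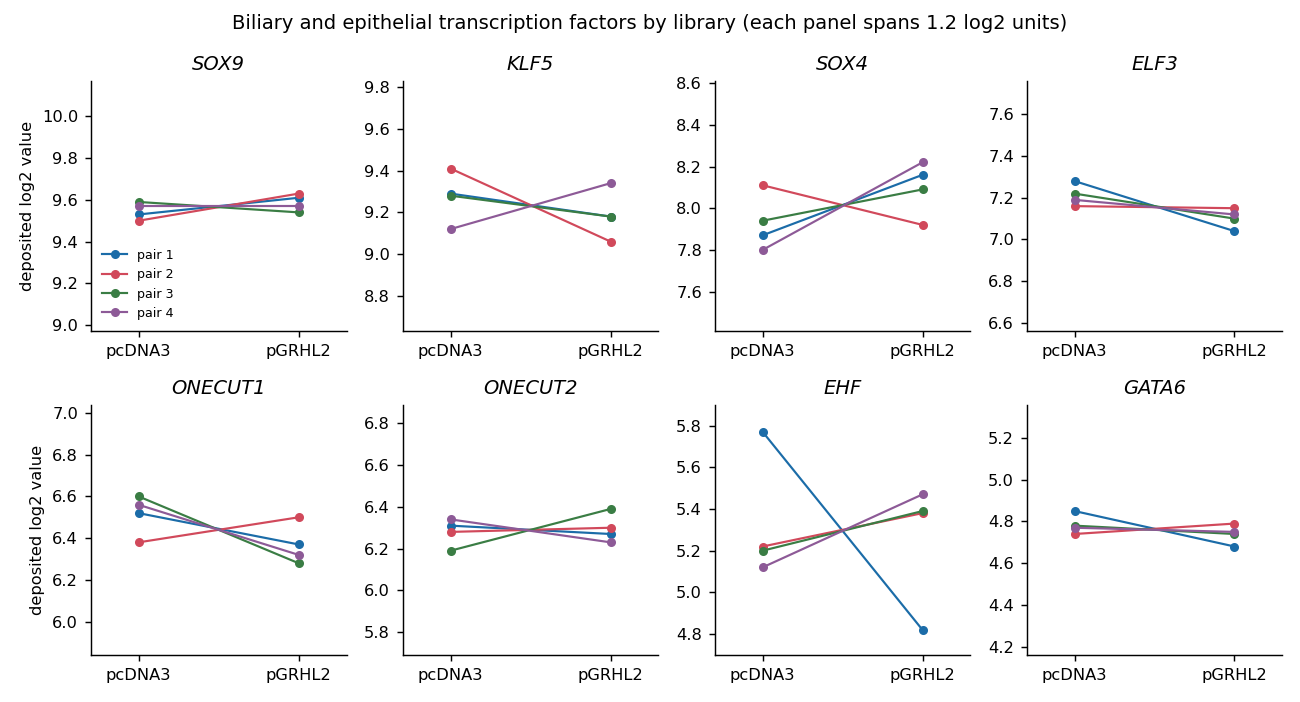
Deposited log2 values of the 8 TFs in each of the 8 libraries, with lines joining the pcDNA3 and pGRHL2 libraries of the same replicate number; every panel spans the same log2 range. Only ELF3 has all 4 lines falling, and EHF has a single steep line, pair 1, from 5.77 to 4.82.

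The 8 TFs covered a wide range of expression in the pcDNA3 libraries. SOX9 was at 9.55 ± 0.04 (SD, n = 4), followed by KLF5 at 9.28 ± 0.12, SOX4 at 7.93 ± 0.13, ELF3 at 7.21 ± 0.05, ONECUT1 at 6.52 ± 0.10, ONECUT2 at 6.28 ± 0.07, EHF at 5.33 ± 0.30 and GATA6 at 4.78 ± 0.05. Against all genes, SOX9 stood at percentile 83.3 of the mean level and GATA6 at percentile 36.8. Each TF was above the next in this order in 4 of 4 pcDNA3 libraries, by differences of 0.24 (ONECUT1 over ONECUT2) to 1.35 (KLF5 over SOX4). The order was set by these same libraries and the spread shared by same-numbered libraries is not in the values, so that no test is given. As the length correction uses an average over transcripts, small differences between genes are approximate. In the pGRHL2 libraries the order of the means was the same, but ONECUT1 exceeded ONECUT2 by only 0.07 and in 3 of 4 libraries.

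SOX9 and SOX4 are high-mobility-group box factors. SOX9 (chromosome 17, 72121020 to 72126416, plus strand, hg38) had values of 9.61, 9.63, 9.54 and 9.57 with pGRHL2 and 9.53, 9.50, 9.59 and 9.57 with pcDNA3. The groups overlapped, with pGRHL2 higher in 2 of 4 pairs, and the log2 FC was 0.04 ± 0.08 (SD of pairs; 95% CI -0.09 to 0.17; adjusted p = 0.804). SOX4, a gene with 1 exon (chromosome 6, 21593751 to 21598619, plus strand), had values of 8.16, 7.92, 8.09 and 8.22 with pGRHL2 and 7.87, 8.11, 7.94 and 7.80 with pcDNA3. It was higher with pGRHL2 in pairs 1, 3 and 4 and lower in pair 2, where the difference was -0.19. The log2 FC of SOX4 was 0.17 ± 0.26 (95% CI -0.04 to 0.38; adjusted p = 0.436), and its SD between pairs was at percentile 97.4 of all genes. It was 0.29 without pair 2 and 0.08 without pair 4, still short of the threshold (adjusted p = 0.184 and 0.713). SOX9 and SOX4 thus differed in how far their pairs spread, the former being near the middle of all genes at percentile 46.4.

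ONECUT1 and ONECUT2 code for homeodomain TFs with a cut domain. ONECUT1 (chromosome 15, 52755053 to 52791078, minus strand) had values of 6.37, 6.50, 6.28 and 6.32 with pGRHL2 and 6.52, 6.38, 6.60 and 6.56 with pcDNA3. It was lower with pGRHL2 in pairs 1, 3 and 4 but 0.12 higher in pair 2, so that the groups overlapped, and its log2 FC was -0.15 ± 0.19 (95% CI -0.31 to 0.02; adjusted p = 0.367). Without pair 2 it was -0.24 and without pair 3 it was -0.09 (adjusted p = 0.164 and 0.644). ONECUT2 (chromosome 18, 57435374 to 57491298, plus strand) had values of 6.27, 6.30, 6.39 and 6.23 with pGRHL2 and 6.31, 6.28, 6.19 and 6.34 with pcDNA3. Pairs 2 and 3 were higher and pairs 1 and 4 lower, for a log2 FC of 0.02 ± 0.13 (95% CI -0.12 to 0.15; adjusted p = 0.936). The sign of this small value turned without pair 3, to -0.04. The remaining gene of the family, ONECUT3, was barely expressed, with a mean of -1.72 and a log2 FC of 0.02 (adjusted p = 0.273).

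EHF and ELF3 are ETS factors of the branch that also holds ELF5, and EHF and ELF5 are neighbours on chromosome 11. EHF spans 34621093 to 34663288 on the plus strand and ELF5 spans 34478791 to 34525193 on the minus strand, with 95.9 kb and 0 protein-coding genes between them in GENCODE. They are shown with their promoters because ELF5 passed the test and its neighbour EHF did not. The sequences run from 100 bases before to 10 bases after a transcription start, 5′ to 3′ on the strand of the gene (RefSeq, GRCh38.p14), at chr11:34624157-34624266 and chr11:34632466-34632575 for both starts of EHF and at chr11:34511715-34511824 for ELF5. None of them holds AACNNGTT, the outline of the site that grainyhead-like TFs are known to recognise. The paper counts EHF among GRHL2 target genes that rose in HepG2 cells with forced GRHL2. It also shows ChIP-seq profiles of GRHL2 at this gene. Binding was not examined here, and these short windows leave out the rest of the locus.
EHF, start 1: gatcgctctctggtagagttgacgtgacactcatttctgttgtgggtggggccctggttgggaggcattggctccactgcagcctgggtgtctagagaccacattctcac
EHF, start 2: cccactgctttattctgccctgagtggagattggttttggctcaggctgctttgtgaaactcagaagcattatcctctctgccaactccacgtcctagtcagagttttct
ELF5: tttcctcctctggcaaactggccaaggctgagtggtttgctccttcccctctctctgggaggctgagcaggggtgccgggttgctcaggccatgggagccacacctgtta

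EHF had values of 4.82, 5.38, 5.39 and 5.47 with pGRHL2 and 5.77, 5.22, 5.20 and 5.12 with pcDNA3. Pairs 2, 3 and 4 were higher with pGRHL2, by 0.16 to 0.35, whereas pair 1 was lower by a difference of -0.95. The mean over all pairs was a log2 FC of -0.06 ± 0.60 (95% CI -0.47 to 0.35; adjusted p = 0.919). This spread was at percentile 99.9 of all genes. Since the moderation in limma draws such a spread towards that of other genes, the SE was 0.18 in the main test, 0.24 with robust moderation (95% CI -0.71 to 0.58) and 0.30 from the 4 pairs alone. Without pair 1 the log2 FC of EHF was 0.23 (SE 0.06) and its adjusted p 0.156, so that the sign of its change rested on this pair. ELF5, a TF of secretory epithelia, rose to 6.09, 6.0, 6.15 and 6.15 with pGRHL2 from 5.69, 5.78, 5.63 and 5.63 with pcDNA3. Its groups did not overlap, and its log2 FC was 0.42 ± 0.14 (adjusted p = 0.0115). ELF5 exceeded EHF in change by 0.48 ± 0.59 (SD of 4 pairs), in 4 of 4 pairs, with an exact sign-flip p of 0.125, the smallest that 4 pairs allow, and by 0.19 without pair 1.

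ELF3 (chromosome 1, 202007945 to 202017183, plus strand) had values of 7.04, 7.15, 7.10 and 7.12 with pGRHL2 and 7.28, 7.16, 7.22 and 7.19 with pcDNA3. It was lower with pGRHL2 in 4 of 4 pairs, by differences from -0.23 in pair 1 to -0.01 in pair 2, and the groups did not overlap, with 7.15 and 7.16 as their nearest values. The log2 FC was -0.11 ± 0.09 (95% CI -0.23 to 0.02; adjusted p = 0.401). The exact sign-flip test over pairs gave p = 0.125, the smallest possible with 4 pairs. An exact permutation test that ignores the pairs gave p = 0.0286, which is its own smallest value and treats as independent the libraries that mirror each other. Counting was unstranded and 18.5% of the exon bases of ELF3 are shared with other genes, among them the antisense gene ELF3-AS1, whose log2 FC was 0.04 (adjusted p = 0.769) at a mean of 3.64.

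KLF5 (chromosome 13, 73054976 to 73077541, plus strand) had values of 9.18, 9.06, 9.18 and 9.34 with pGRHL2 and 9.29, 9.41, 9.28 and 9.12 with pcDNA3. Pairs 1, 2 and 3 were lower with pGRHL2 and pair 4 was higher, so that the groups overlapped. Its log2 FC was -0.09 ± 0.23 (95% CI -0.29 to 0.11; adjusted p = 0.705), and was 0.0014 without pair 2, the pair with the largest difference (-0.35). GATA6 (chromosome 18, 22169589 to 22202528, plus strand) was the least expressed of the 8 TFs, at 4.68, 4.79, 4.74 and 4.75 with pGRHL2 and 4.85, 4.74, 4.78 and 4.77 with pcDNA3. The groups overlapped, with pGRHL2 higher in pair 2 alone, and the log2 FC was -0.04 ± 0.09 (95% CI -0.14 to 0.05; adjusted p = 0.689). Of the exon bases of GATA6, 10.9% are shared with other genes including GATA6-AS1, which had a log2 FC of 0.02 (adjusted p = 0.462).

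**Figure D2:**
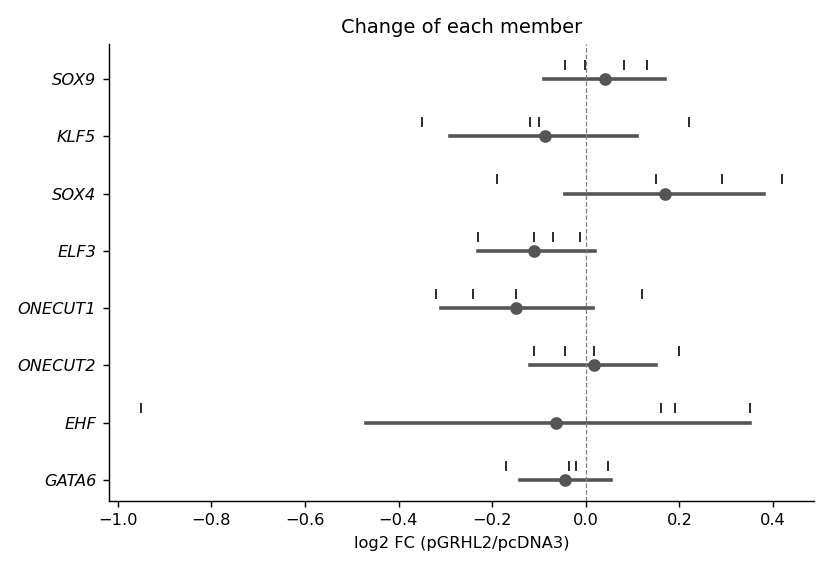
Change of each TF as log2 FC (x axis, pGRHL2 over pcDNA3); dots are means of 4 pairs, bars the 95% CIs from limma and ticks the 4 pair differences. All 8 bars cross 0, and the tick of EHF at -0.95 lies outside its own bar.

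The 8 TFs did not move together from pair to pair. Of the 8, 2 were higher with pGRHL2 in pair 1, 5 in pair 2, 3 in pair 3 and 3 in pair 4, with median differences of -0.135, 0.032, -0.040 and -0.011. Without EHF the median of pair 1 was -0.116. Medians over all genes were between 0.001 and 0.006 in the 4 pairs. SOX4 had the opposite sign to both ONECUT1 and GATA6 in every pair, a contrast picked after the values were seen. Where SOX4 differed by 0.29, -0.19, 0.15 and 0.42, ONECUT1 differed by -0.15, 0.12, -0.32 and -0.24. GATA6 differed by -0.17, 0.047, -0.035 and -0.02.

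Genes with the most similar course over the 4 pairs were sought for the 4 TFs with a pair difference of at least 0.3 in size, as the smallest root mean square distance among 16910 genes. For SOX4 these were S100A16, FNDC4 and ANXA3 (distances 0.0532 to 0.0639), for ONECUT1 KLHL13, SLC25A30 and SORBS3 (0.0385 to 0.0454), and for KLF5 SH3GLB1, SERPINE2 and TGDS (0.0375 to 0.0389). S100A16, coding for a calcium-binding protein, differed by 0.29, -0.10, 0.20 and 0.40 in pairs 1 to 4, near the values of SOX4. EHF had no close match, since the nearest genes, IFIT1, BAG6 and INTS3, were at distances of 0.219 to 0.303. IFIT1, an interferon-induced gene, differed by -0.55 in pair 1 and by 0.18 to 0.37 in the others. None of these 12 genes passed the test (adjusted p from 0.27 to 0.999).

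Of the 50 other SOX, ONECUT, KLF, GATA and ETS genes in the table, 9 (18%) passed the test, against 2.19% of all genes. Of the 9, 4 were higher and 5 lower with pGRHL2, where 1.69% and 0.501% of all genes were. By family this was 2 of 12 SOX genes higher, 0 of 1 ONECUT gene, 2 of 12 KLF genes lower, 1 of 4 GATA genes higher and 1 lower, and 1 of 21 ETS genes higher and 2 lower. The median log2 FC of the 50 genes was -0.0109, and 20 of them had an unadjusted p under 0.05, against 16.0% of all genes. Groups did not overlap for 14 in the higher and 11 in the lower direction, against 13.4% and 10.5% of all genes. The direction went with the level of expression: the 4 genes that rose had means of 1.04 to 5.89, and the 5 that fell had means of 8.06 to 11.08. Among the 18 relatives with a mean under 5, 3 rose and 0 fell, and among the 32 with a mean of at least 5, 1 rose and 5 fell. Calls over all genes leaned the same way under a mean of 5, where 3.34% rose and 0.104% fell. At or above it 0.672% rose and 0.746% fell. By median log2 FC, all genes were slightly lower at the levels of the 5 that fell. This median was -0.0192 at means of 8 to 10 and -0.0184 at means of 10 to 20, against 0.00118 at means of 6 to 8. The 8 TFs had means of 4.76 to 9.57, which overlap the ranges of both groups.

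**Figure D3:**
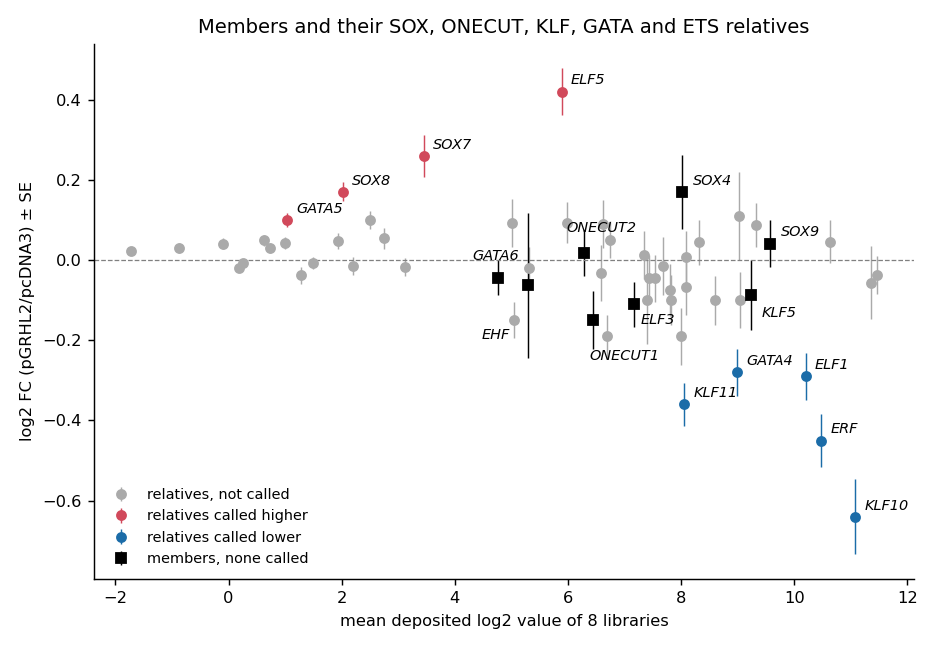
Log2 FC (pGRHL2 over pcDNA3, y axis, bars are limma SEs) against the mean deposited log2 value of 8 libraries (x axis) for the 8 TFs (black squares) and 50 relatives (circles, coloured where the test was passed). The 4 relatives that rose are at means of 1.04 to 5.89, the 5 that fell at 8.06 to 11.08, and the squares are between -0.15 and 0.17.

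KLF10 and KLF11, transcriptional repressors known to be induced by TGF-beta, were the KLF genes that fell. KLF10 was at 10.62, 10.66, 10.84 and 10.90 with pGRHL2 and at 11.53, 11.50, 11.31 and 11.25 with pcDNA3. The groups were well apart, with a log2 FC of -0.64 ± 0.27 (adjusted p = 0.0137). KLF11 was at 7.86 to 7.91 with pGRHL2 and at 8.21 to 8.26 with pcDNA3, for a log2 FC of -0.36 ± 0.05 (adjusted p = 0.0139). The difference in change between KLF5 and KLF10 was 0.55 ± 0.18, with KLF5 above in 4 of 4 pairs. Neither KLF4 (log2 FC -0.03, adjusted p = 0.892) nor KLF6 (-0.06, adjusted p = 0.836), both of the subgroup of KLF5, passed the test. KLF7, of the same subgroup, was lower in 4 of 4 pairs but did not pass (-0.19, adjusted p = 0.119).

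Among ETS genes, ERF, which codes for a repressor, had values of 10.33, 10.29, 10.25 and 10.16 with pGRHL2 and 10.64, 10.68, 10.71 and 10.80 with pcDNA3. ERF thus fell in all pairs, with a log2 FC of -0.45 ± 0.14 (adjusted p = 0.0137). ELF1, a broadly expressed ETS activator, fell as well (-0.29 ± 0.09, adjusted p = 0.0441). ELF3 exceeded ERF in change by 0.34 ± 0.20, in 4 of 4 pairs. The remaining 18 ETS genes, including SPDEF, another epithelial member of the family (log2 FC 0.05, adjusted p = 0.0982, mean 0.63), did not pass.

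SOX8, the closest relative of SOX9 together with SOX10, rose slightly, from 1.91 to 1.98 with pcDNA3 to 2.07 to 2.14 with pGRHL2 (log2 FC 0.17 ± 0.06, adjusted p = 0.0124). SOX7, a TF of endoderm and endothelium, rose with a log2 FC of 0.26 ± 0.16 (adjusted p = 0.0407). Of its exon bases, 39.4% are shared with PINX1, whose own log2 FC was -0.05 (adjusted p = 0.769). SOX7 exceeded SOX9 in change by 0.22 ± 0.15, in 4 of 4 pairs. Both SOX genes were weakly expressed, at means of 2.03 and 3.45, where the rlog transformation shrinks differences and the median SD of pairs was 0.0477 (means of 2 to 4) against 0.12 at the level of SOX9 (means of 8 to 10).

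In the GATA family the TFs of endoderm went different ways. GATA4, a factor of liver and heart development, was at 8.86, 8.84, 8.80 and 8.89 with pGRHL2 and 9.12, 9.14, 9.18 and 9.09 with pcDNA3, a log2 FC of -0.28 ± 0.08 (adjusted p = 0.0497). GATA5 rose by 0.10 ± 0.04 on the log2 scale (adjusted p = 0.0285) at a mean of 1.04. GATA6 was between them at -0.04, and GATA5 exceeded GATA6 in change by 0.14 ± 0.08, in 4 of 4 pairs. GATA3, an epithelial TF of breast and skin, had a log2 FC of 0.10 (adjusted p = 0.0522). The 5 differences in change between a TF and a relative were chosen after their values were seen, and each has the exact sign-flip p of 0.125 that is the smallest for 4 pairs.

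These 9 calls depended on how the variance was moderated, and most were lost when a pair was left out. With moderation that takes no account of the expression level, 0 of the 9 passed (adjusted p from 0.0556 to 0.192), and 4 genes rose and 2 fell in the whole table. With pairs left out in turn, ELF5 kept its call only without pair 2 (adjusted p of 0.0504 to 0.0685 without the other pairs). KLF10 (0.0522 to 0.0799), KLF11 (0.0518 to 0.106) and ERF (0.0533 to 0.0686) kept theirs only without pair 4. SOX8 lost its call without pair 1 (0.0718) or pair 3 (0.069), while ELF1 (0.0716 to 0.248), GATA4 (0.0724 to 0.214), GATA5 (0.0512 to 0.121) and SOX7 (0.0565 to 0.142) lost theirs whichever pair was left out. All 9 kept their direction. Calls over all genes also fell with a pair left out, from 297 higher and 88 lower to 79 to 156 and 8 to 68. A lost call therefore does not show that it rested on the pair left out.

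Other epithelial TFs were read from a list of 10 genes, of which 8 were in the table. OVOL1 and TFAP2A rose, 0 fell, 4 had an unadjusted p under 0.05, and groups did not overlap for 5 in the higher and 1 in the lower direction. Among all genes 1.69% rose (3.34% under a mean of 5, where both of these lie), 16.0% had such a p, and 13.4% and 10.5% did not overlap. The median log2 FC of the 8 genes was 0.0736. OVOL1, a zinc-finger repressor that helps to keep the epithelial state, was at 4.29, 4.41, 4.37 and 4.36 with pGRHL2 and at 4.02, 3.90, 3.94 and 3.95 with pcDNA3. It was well above its controls in every pair (log2 FC 0.40 ± 0.10, 95% CI 0.31 to 0.50, adjusted p = 0.00314) and passed whichever pair was left out, although not with moderation that ignores the level (adjusted p = 0.0771). Its relative OVOL2 was higher in 4 of 4 pairs but did not pass (log2 FC 0.17, adjusted p = 0.083). TFAP2A, a TF of skin and neural crest, rose from 2.18 to 2.21 with pcDNA3 to 2.32 to 2.35 with pGRHL2 (log2 FC 0.12 ± 0.03, adjusted p = 0.0182), and lost its call whichever pair was left out (adjusted p from 0.0675 to 0.0799) and with level-independent moderation (0.116). Antisense genes share 27.3% of the exon bases of OVOL1 and 16.8% of those of TFAP2A. The grainyhead-like relatives GRHL1 (log2 FC -0.10, adjusted p = 0.438) and GRHL3 (0.11, adjusted p = 0.119) did not pass.

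Biliary genes, often used to mark bile duct cells or their progenitors, were read from a list of 15, of which 12 were in the table. Of these 12, 1 passed as higher, 0 passed as lower and 5 had an unadjusted p under 0.05. Their median log2 FC was 0.0838. Groups did not overlap for 6 in the higher and 2 in the lower direction. The shares over all genes were 1.69% higher, 0.501% lower, 16.0% with such a p, and 13.4% and 10.5% without overlap. PROM1, which codes for the progenitor antigen CD133, was at 4.18, 4.19, 4.20 and 4.12 with pGRHL2 and at 3.96, 3.95, 3.94 and 4.03 with pcDNA3. The groups did not overlap, with a log2 FC of 0.20 ± 0.08 (adjusted p = 0.0308). This call was lost without pair 1, 2 or 3 (adjusted p from 0.121 to 0.151) and with level-independent moderation (0.114). CD24, a surface glycoprotein of biliary and progenitor cells, was higher in 4 of 4 pairs but did not pass (log2 FC 0.21, adjusted p = 0.146). The keratins KRT7 (log2 FC 0.19, adjusted p = 0.097) and KRT19 (0.15, adjusted p = 0.569) were likewise not past the threshold. The paper lists KRT7 among the GRHL2 target genes that rose in HepG2 cells with forced GRHL2. BICC1, which codes for an RNA-binding protein (log2 FC -0.14, adjusted p = 0.222), and SLC4A2, which codes for an anion exchanger (-0.13, adjusted p = 0.328), were lower in 4 of 4 pairs and did not pass.

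**Figure D4:**
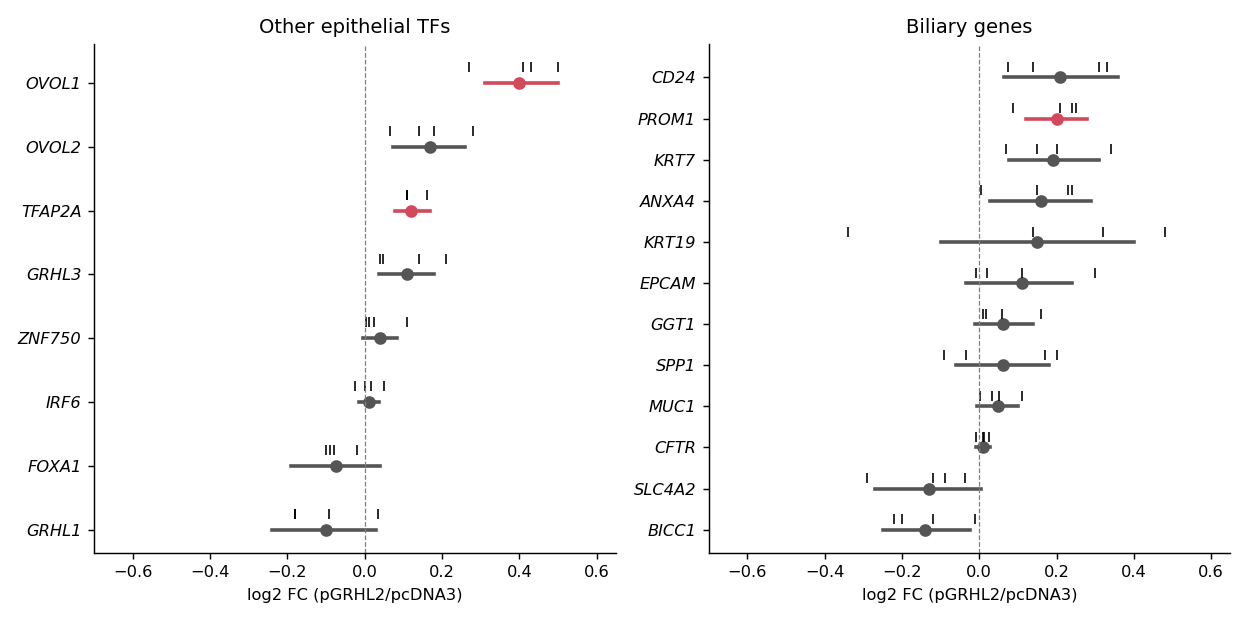
Log2 FC (pGRHL2 over pcDNA3, x axis) of 8 other epithelial TFs and 12 biliary genes; dots are means of 4 pairs, bars the 95% CIs from limma and ticks the pair differences. Red dots passed the test, which were OVOL1 (0.40), TFAP2A (0.12) and PROM1 (0.20).

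The promoters were searched for the letters AACNNGTT (which read the same on both strands), for AACCNGTT on both strands and for AACCGGTT, the last being contained in the others. The windows run from 250 bases before to 50 bases after each start, and 7 of the 8 TFs had an entry, all but SOX9, with 9 windows in total. None of these 7 held any of the 3 motifs, which occur in 3.52%, 1.73% and 0.134% of all 35116 windows. Of the 9 relatives that changed, 4 had an entry and 1, ERF, held AACNNGTT. Of OVOL1, TFAP2A and PROM1, 2 had an entry and 0 held a motif. The ERF window is printed because it is the only match among these genes, at chr19:42253890-42253999 on the minus strand, with the match in capitals, its first base 5 bases before the start.
ERF, start 3: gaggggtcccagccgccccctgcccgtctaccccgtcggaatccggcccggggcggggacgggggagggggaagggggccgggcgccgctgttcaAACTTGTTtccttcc
A match is a description of these letters only, and ERF fell.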

How the data were processed

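RNA-seq libraries (paired-end mRNA) of HepG2 cells, 4 with pGRHL2 and 4 with pcDNA3, were grouped and numbered by their sample labels. Reads were aligned by the authors to hg38 with HISAT2 (version 2.2.1 in their processing notes), counting over exons used HTSeq (0.9.1, unstranded, union mode), rarely read genes were dropped, and the rlog of DESeq2 (1.40.2) was corrected for the average length of transcripts. Although called FPKM, the deposited values are on a log2 scale, from -3.76 to 17.27, with 3.71% below 0 and library medians of 6.71 to 6.73. Rlog shrinks differences of genes with few reads. No counts were analysed here, so the depth is unknown. A stray character was removed from 1 value, and 0 columns belonged to other samples.

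Same-numbered libraries had the same mean across the 4 numbers in 17561 of 17561 genes (tolerance 1e-09, largest spread 1.5e-13), so the values had been adjusted by replicate number, a step not described in the sources used here. A correlation check of the pairing is void by construction. The planned test on log2(FPKM + pseudocount) was replaced by limma (3.58.1, R 4.3.3) on the log2 values, including a block for each number (3 residual degrees of freedom instead of 6), moderation that follows the mean level, and Benjamini-Hochberg adjustment over all 17561 genes. The fit was checked on simulated data. P-values reflect the spread between these 4 pairs. Exact tests were two-sided.

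The TFs and gene lists were chosen with earlier results of these data known, and 1 gene of the biliary and cholangiocyte lists is not reported here. The genes named were the 8 TFs, GRHL2, genes past the threshold in the lists of relatives, epithelial TFs and biliary genes, the 2 largest changes of each list, and the 3 nearest matches of TFs with a pair difference of at least 0.3 (among genes with a mean of at least 0). ONECUT3, KLF4, KLF6, KLF7, SPDEF, GATA3, GRHL1, GRHL3, KRT7, KRT19, BICC1, SLC4A2 and ELK3 were named after their values were seen. Positions are from GENCODE 44 and promoters from RefSeq. Alternatives were no block, other moderation, library weights, other scalings, filters on low levels and leaving out each pair.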

Additional observations from a re-analysis of the deposited data

Results flagged for a closer look

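In 2 of 24 results examined, the difference of 1 pair stood apart from those of the other 3 by Dixon's criterion, which chance alone meets in about 1 of 20 groups. For EHF this was pair 1, with a log2 difference of -0.9527 between pGRHL2 and pcDNA3 against 0.16 to 0.35 in the others, a gap of 0.857 of the whole range. For TFAP2A it was pair 4, with 0.1621 against 0.11 in each of the others, a gap of 0.902 of the range. The part of any technical difference of these pairs was not tested.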

How the results depend on the processing

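None of the 8 TFs passed limma in any setting. Of 63 values of the 8 TFs in limma settings other than leaving out pairs, 63 kept their direction and side of the threshold. With pairs left out in turn, 29 of 32 did, and the sign turned for ONECUT2 without pair 3 (-0.0449; highest 0.0580), EHF without pair 1 (0.2338; lowest -0.1997) and KLF5 without pair 2 (0.0014; range from -0.19). Values moved by over 1.5 times for SOX4 (0.0840 to 0.2863), ONECUT1 (-0.2376 to -0.0895), SOX9 (0.0119 to 0.0693), ELF3 (-0.1395 to -0.0656) and GATA6 (-0.0747 to -0.0026). The difference of ELF5 and EHF without a pair was added after seeing the data. The median of the 8 TFs then ranged from -0.0856 to 0.0125. Without the replicate block, ELF3 (-0.1078) reached p = 0.0286 in the exact unpaired permutation test.

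Counts moved more. Without the replicate block 1821 genes rose and 1427 fell in limma, with 11 relatives higher and 8 lower, 4 other epithelial TFs higher, and 4 biliary genes higher and 2 lower. That fit counts mirrored libraries as independent. With moderation that ignores the level 4 genes rose and 2 fell, with 0 relatives in either direction, 0 epithelial TFs and 0 biliary genes. Library weights gave 503 higher and 221 lower, and an equal total without GRHL2 gave 495 higher. The filter for means of at least 5 removed GATA6 and also the called genes SOX7, SOX8, GATA5, OVOL1, TFAP2A and PROM1, which were thus not tested. Under this filter 63 genes rose, against 73 with such a mean in the main fit. They held 1 relative, 0 epithelial TFs and 0 biliary genes, which for the removed genes is no lost call. With pairs left out in turn, 79 to 156 genes rose and 8 to 68 fell, and calls ranged from 0 to 2 relatives higher, 0 to 3 lower, 1 to 1 epithelial TFs and 0 to 1 biliary genes. The lowest counts of all genes came without pair 1. Of 90 values of the 12 other genes past the threshold, 78 were kept and 12 lost, all 12 with level-independent moderation. With pairs left out, 11 of 48 were kept. Scalings shifted the median of all genes by -0.0043 and 0.0135. Fewer pairs widen the intervals, and without counts no limit of depth can be given.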

Other observations

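Pair 2 went against the other pairs in 3 of the 8 TFs, SOX4, ONECUT1 and GATA6, and in KRT19 and ELK3, which were picked after their values were seen. KRT19, a keratin of bile duct cells, differed by 0.32, -0.34, 0.14 and 0.48 in pairs 1 to 4, and ELK3, an ETS factor that represses or activates depending on its phosphorylation, by 0.23, -0.38, 0.26 and 0.33. SOX4 differed by 0.29, -0.19, 0.15 and 0.42. SOX4, KRT19 and ELK3 did not pass the test in limma (adjusted p = 0.569 for KRT19, 0.715 for ELK3 and 0.436 for SOX4), and the SDs of KRT19, ELK3 and SOX4 between pairs were at percentiles 99.3, 99 and 97.4 of all genes.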
